A study of Mus musculus with 9 samples.

Results

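RNA sequencing of line 45555 compared 1 library labelled 45555-Cre-Puro, with the genetic status Jak1 Knockout, against 1 library labelled 45555-Wt-Puro, with the status Jak1 Wildtype. These are 2 of the 9 libraries of the series, and they were chosen by their line number and title. Both came from a tumour-derived cell line of the FVB/N strain. Its tumour arose under the MMTV-neu transgene, which expresses the rat neu oncogene, a form of Erbb2, from a viral promoter active in mammary epithelium. Both libraries were from attached cells in serum medium with insulin, epidermal growth factor (EGF), hydrocortisone and linoleic acid, and both cultures had puromycin at 5 ug per 10 ml of medium. How Cre was delivered, whether the Cre culture is 1 clone or a pool, the ages of the mice and the number of cultures behind a library are not stated in the sources at hand. The libraries are called the wild type library and the Cre library below. With 1 library on each side there is no replicate and no test, so every difference below describes these 2 libraries and cannot be told apart from the spread between cultures. Lines 47298 and 45566B have the same pair of states and no library in common with 45555.

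JAK1 is a tyrosine kinase bound to the inner face of cytokine receptors. It serves type I, type II and type III interferon receptors, receptors that share the gp130 chain (for interleukin 6, oncostatin M, leukaemia inhibitory factor and interleukin 11), and receptors for interleukins 4, 10 and 13. Once a receptor is engaged, JAK1 and its partner kinases phosphorylate STAT transcription factors, of which STAT2 acts with IRF9 at interferon-stimulated genes and STAT3 acts at acute-phase and feedback genes. In the mammary gland gp130 and STAT3 signalling is known for its part in the regression of the gland after weaning.

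Levels are in FPKM, that is, sequenced fragments scaled to the length of the transcript and to the size of the library. Of the genes, 8885 reached 5 FPKM in at least 1 of the libraries and were kept, after symbols of short noncoding RNAs (microRNAs, small nucleolar, Cajal body and U RNAs) were left out. The wild type library alone carried 648 of them over the limit and the Cre library alone 314. Genes just inside it were Ddx26b, at 5.00 FPKM in wild type and 3.21 in Cre, and Trp53rka, at 4.38 and 5.00. Peg12, at 2.65 and 4.995 FPKM, stood just outside. Each comparison is the difference of log2(FPKM + 1), Cre minus wild type, called the log2 difference here. It understates the change of low genes. A gene is called higher or lower when this difference is 1 or more in size. The fragment steps of low values put the depth at about 18600000 fragments in the wild type library and 24800000 fragments in the Cre library. A gene of 1 kb at 5 FPKM then rests on about 92.9 and 124 fragments. Counting error alone gives its difference of log2 FPKM, without the added 1, an SD of 0.198. With the added 1 the SD is somewhat smaller. Short noncoding RNA symbols took 8.70% of the summed FPKM in wild type and 13.2% in Cre.

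The middle of the distribution lay at 0, with a median log2 difference of -0.01 and 65.8% of kept genes within 0.5 of 0. The 5th and 95th percentiles were -1.14 and 0.90, so the lower tail reached further than the upper one on the authors' scale. In the Cre library 309 of 8885 genes (3.48%) were higher and 578 (6.51%) were lower. Of those, 62 higher and 250 lower genes were kept through 1 library only and had to differ, so the counts partly follow from the filter. The shares over all kept genes, 3.48% higher and 6.51% lower, are the background for each list count below, except where another setting is named. At a log2 difference of 2, 15 genes were higher and 91 lower. The higher genes made up 34.8% of all calls. This split depends on the scaling. With each library rescaled to a common larger sum, which also brought 9860 genes over the limit and made the added 1 smaller beside the values, they made up 45.3%, or 506 genes higher against 611 lower. In a setting added after seeing the data, the Cre library alone was rescaled to the wild type sum, with short noncoding RNA symbols left out of both sums. Then 450 genes were higher and 465 lower of 8949 kept (49.2% higher among calls), since the median of kept genes moved up by 0.11.

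**Figure D1:**
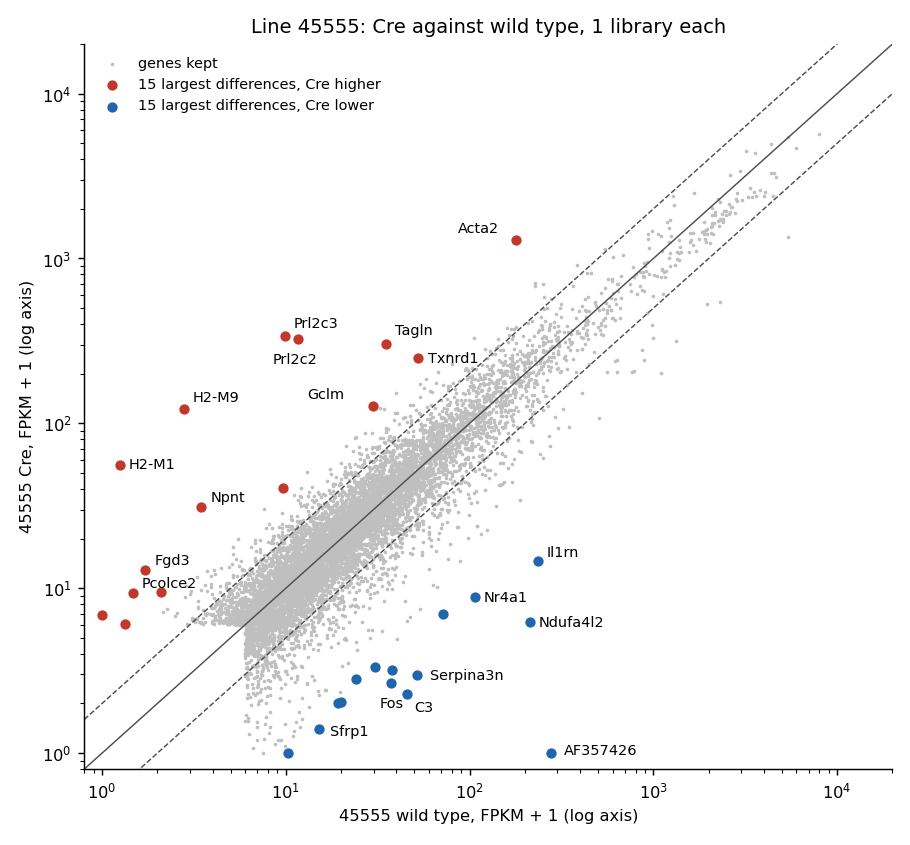
Each point is 1 of the 8885 kept genes, with FPKM + 1 in the 45555 wild type library on the x axis and in the 45555 Cre library on the y axis (both log axes), 1 library each. The solid line marks equal levels and the dashed lines a 2-fold difference. Red and blue points are the 15 genes with the largest log2 difference in each direction, from H2-M1 (5.47) above the lines to AF357426 (-8.11) below them.

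Jak1 itself checks the label only weakly. The gene lies at chr4:101152367-101265282 on the minus strand of GRCm38 and is protein coding. It stood at 86.7 FPKM in the wild type library and 74.4 FPKM in the Cre library, a log2 difference of -0.22. The part of Jak1 that Cre removes is not given in the labels, and a value over the whole gene does not show whether an exon is missing, so most of the Jak1 signal was still present in the library labelled Jak1 Knockout.

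The labelled source, mammary tumour cells, was set against markers of the cell types such a culture could hold. Of 20 luminal epithelial markers, 2 reached 5 FPKM (the keratins Krt19 and Krt7), and the list summed to 15.1 FPKM in wild type and 16.3 FPKM in Cre. The same list summed to 6028 FPKM in 45566B wild type and 5741 in 45566B Cre. Epcam, an adhesion molecule of epithelia, stood at 0.169 and 0.423 FPKM, and E-cadherin (Cdh1) at 0.0622 and 0.121. The luminal keratins Krt8 and Krt18 were below 1 FPKM in both libraries, and the basal keratins Krt5 and Krt14 were listed at 0 in wild type. Of 12 fibroblast markers, 8 were kept, and they made up nearly all of a list sum of 12219 FPKM in wild type and 12152 FPKM in Cre. Of these 8, 6 were below 0, with a median log2 difference of -0.41, and 2 were called lower, Col3a1 and Pdgfra. The type I collagen chain Col1a1 stood at 1879 and 1675 FPKM, and vimentin (Vim), the mesenchymal intermediate filament, at 2595 and 3218 FPKM. None of the 13 leukocyte markers measured was kept, and Ptprc, the pan-leukocyte surface phosphatase, was listed at 0 in both libraries. Of 9 endothelial markers 1 was kept, the receptor Flt1 (19.7 and 21.7 FPKM). The adipocyte list had 4 of 10 markers kept, with the fatty acid carrier Fabp4 at 331 and 311 FPKM. Both libraries of 45555 thus held abundant mesenchymal transcripts, with the defining epithelial ones at or near 0. Erbb2 stood at 7.84 and 9.47 FPKM, and gene-level values do not separate the mouse gene from a rat transgene. These were the lowest Erbb2 levels of the series, and the other 7 libraries ran from 19.7 to 335 FPKM. Erbb2 stood at 37.6 FPKM in wild type and 243 FPKM in Cre of 47298, and at 335 and 264 FPKM in 45566B. The reason for the low level in 45555 was not tested.

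Stat2, Stat3 and Irf9 were lower in the Cre library, and most other kept JAK, STAT and interferon regulator genes were not called. Among 8 kept JAK and STAT genes 0 were higher and 2 lower, with a list median of -0.37 against -0.01 over all kept genes. Stat3, the main STAT of gp130 receptors, stood at 66.5 FPKM in wild type and 19.0 FPKM in Cre, a log2 difference of -1.76. Stat2, a part of the type I interferon complex, stood at 8.99 and 2.15 FPKM (log2 difference -1.66). These are 0.286 and 0.240 of the wild type level. Jak2 (26.5 and 19.6 FPKM), Tyk2 (6.53 and 5.03 FPKM), Stat5b and Stat6 all lay within 0.5 of a log2 difference of 0.

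Irf9, the DNA-binding partner of STAT2, had the largest difference of the 9 kept interferon receptor and regulatory factor genes, at 13.3 FPKM in wild type and 1.78 FPKM in Cre (log2 difference -2.37). Irf5, another regulatory factor, was the 1 member called higher, at 1.56 and 6.07 FPKM (1.47). The receptor chains themselves moved less. Ifnar2 stood at 45.4 and 27.6 FPKM (-0.70), and Ifnar1, Ifngr1 and Ifngr2 had log2 differences between -0.37 and -0.13.

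All 19 kept interferon-stimulated effectors, of 44 listed, were on the lower side, and 9 of them were called, with a median log2 difference of -0.97. The list summed to 2622 FPKM in wild type and 760 FPKM in Cre. Ifitm3, a membrane protein that blocks virus entry, stood at 1093 and 200.8 FPKM (log2 difference -2.44). Isg15, a ubiquitin-like modifier, stood at 11.96 and 1.64 FPKM (-2.30), and Ifi27l2a, a mitochondrial interferon-induced protein, at 8.88 and 1.63 FPKM (-1.91). Ifitm2 stood at 994 and 328 FPKM (-1.60). The RNA sensor Ddx58 (-1.53), the ADP-ribosyltransferase Parp9 (-1.58) and the nuclear body protein Sp100 (-1.15) were among the other called members. The remaining 10 ran from -0.97 (Lgals3bp) to -0.33 (Isg20). Of the 44 listed, 12 were under 1 FPKM in wild type and 23 in Cre. Only 2 of 17 interferon gamma-induced GTPases and binding proteins were kept, Gbp2 at 10.5 and 1.81 FPKM (-2.03) and Irgm1 at 11.9 and 7.45 FPKM (-0.61). Without a filter on low values 19 of the 44 effectors and 4 of the 17 GTPases were lower by 1 or more, and none was higher. Over all 23059 genes of that setting 3.37% were lower and 1.48% higher.

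The sequence upstream of the RefSeq start of 2 of these genes shows the motif that interferon complexes are known to bind. GAAANNGAA, read on both strands, was looked for from 250 bases before to 50 after the gene start in RefSeq promoters of GRCm38.p6. Of 11 members called lower in the interferon lists, 8 had a promoter in the table and 6 of those held the motif (75%), among them Ifitm3, Ifitm2, Ddx58 and Samd9l. Of the promoters of kept genes 8.24% held it. The 250 bases before the start of Isg15 (chr4:156200819-156201068, minus strand) and of Gbp2 (chr3:142620413-142620662, plus strand) are given 5′ to 3′ on the gene's strand, with the motif in capitals.
Isg15: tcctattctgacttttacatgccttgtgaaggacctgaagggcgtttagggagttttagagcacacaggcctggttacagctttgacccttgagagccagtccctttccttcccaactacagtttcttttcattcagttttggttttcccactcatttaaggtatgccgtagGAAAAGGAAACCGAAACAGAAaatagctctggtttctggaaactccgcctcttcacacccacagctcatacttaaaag
Gbp2: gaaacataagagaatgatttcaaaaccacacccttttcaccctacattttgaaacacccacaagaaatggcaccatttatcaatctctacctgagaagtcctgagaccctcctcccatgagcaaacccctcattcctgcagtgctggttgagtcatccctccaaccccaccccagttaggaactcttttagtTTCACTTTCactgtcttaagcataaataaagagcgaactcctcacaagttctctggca
Isg15 has 3 overlapping matches, which begin 78, 72 and 66 bases before the start. Gbp2 has 1 match on the opposite strand, 58 bases before the RefSeq start. The GENCODE gene begins at 142620602, so by that position the match lies just inside the gene. A match is a string of letters and says nothing about binding in these cells.

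Antigen presentation genes were lower as a group, with 7 of 18 kept members lower, 0 higher and a median log2 difference of -0.79. With the Cre library rescaled 5 were lower. The inducible proteasome subunit Psmb8 stood at 7.25 FPKM in wild type and 0.770 FPKM in Cre (-2.22). Tapasin (Tapbp), which loads peptide on class I molecules, stood at 34.3 and 11.4 FPKM (-1.51). The proteasome activator subunits Psme1 (68.1 and 27.8 FPKM) and Psme2 (116 and 48.5 FPKM) had log2 differences of -1.26 and -1.24. The classical heavy chains were closer to their wild type level, with H2-K1 at -0.78 and H2-D1 at -0.24, and so was their partner B2m, at 659.8 and 501 FPKM (-0.40). The general chaperones Calr, Canx and Pdia3 lay between 0.08 and 0.16.

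Transcription factors that STAT3 is known to induce were lower too. Of 16 kept members of the SOCS and STAT3 feedback list, 7 were lower (5 with the Cre library rescaled), 0 higher, and the median log2 difference was -0.74. Cebpd, a factor of the acute-phase response, stood at 39.2 FPKM in wild type and 3.95 FPKM in Cre (-3.02). Bcl3, an atypical inhibitor of NF-kappaB, stood at 6.14 and 1.06 FPKM (-1.79). The feedback inhibitors Socs2 (36.9 and 10.2 FPKM) and Socs3 (10.4 and 4.55 FPKM) had log2 differences of -1.75 and -1.04, and the call of Socs3 was lost, at -0.99 and -0.95, under these rescalings. Myc and the kinase Pim3 lay at 0.16 and 0.14. The gamma-activated motif TTCNNNGAA, on both strands, was in the promoter of 1 of 8 called members of the STAT3 and acute-phase lists with a promoter in the table, against 7.71% of kept genes. That member was Socs3, and its upstream bases (chr11:117969367-117969616, minus strand) are shown with the match in capitals, 154 bases before the start.
Socs3: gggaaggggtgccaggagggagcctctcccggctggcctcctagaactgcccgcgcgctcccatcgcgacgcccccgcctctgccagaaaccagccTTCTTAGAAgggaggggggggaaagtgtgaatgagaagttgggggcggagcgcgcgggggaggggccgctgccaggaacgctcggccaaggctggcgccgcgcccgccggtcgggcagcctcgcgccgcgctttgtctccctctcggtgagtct

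Receptors above these factors differed chain by chain. The oncostatin M receptor Osmr stood at 59.1 FPKM in wild type and 12.1 FPKM in Cre (-2.20), and the leukaemia inhibitory factor receptor Lifr at 8.72 and 3.29 FPKM (-1.18). Il6st, the shared gp130 chain, stood at 93.2 and 76.1 FPKM (-0.29), so the shared chain was not called. Il13ra1, a chain of the interleukin 4 and 13 receptor, stood at 18.9 and 1.05 FPKM (-3.28), whereas its partner Il4ra was at 16.5 and 18.8 FPKM (0.18). The log2 difference of Il13ra1 was 0.04 in 47298 and 0.03 in 45566B, and that of Il4ra was -1.25 and 0.16.

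Secreted proteins of the acute-phase response gave some of the largest values, in both directions. Of 21 listed, 7 were kept, 4 lower and 2 higher. The protease inhibitor Serpina3n stood at 50.9 FPKM in wild type and 1.98 FPKM in Cre (-4.12), the interleukin 1 receptor antagonist Il1rn at 234 and 13.6 FPKM (-4.01) and the copper carrier ceruloplasmin (Cp) at 87.2 and 13.7 FPKM (-2.59). Haptoglobin (Hp) stood at 5.60 and 0.0688 FPKM (-2.63). Lcn2, another gene of the list, was at 13.6 and 15.7 FPKM (0.20). The metalloproteinase inhibitor Timp1 was among the higher ones, at 225 and 677 FPKM (1.59). The list was thus not lower throughout, and because most of its members are near 0 its median over all 21 measured members was 0.00.

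Complement genes followed, with 3 of 4 kept members lower, of 23 measured. Those 3 passed the limit through the wild type library only, so they had to lie below 0. Over all 23 measured members the median log2 difference was -0.22. C3, the central component, stood at 44.6 FPKM in wild type and 1.30 FPKM in Cre (-4.31), C1s1 at 29.6 and 2.31 FPKM (-3.21) and C1ra at 19.6 and 3.94 FPKM (-2.06), the latter pair being proteases that start the classical pathway. Cd59a, which protects cells from complement, was higher, at 8.64 and 19.1 FPKM (1.06). Of the interleukin 1 family and its receptors 4 of 5 kept members were lower, including Il18 (6.81 and 1.01 FPKM, -1.96). Of 7 kept chemokines 3 were lower and 0 higher. They were Ccl9 (85.5 and 28.2 FPKM, -1.57), Cxcl5 (-1.40) and Cxcl1 (-1.09, but -0.99 with the Cre library rescaled), while Ccl2 and Ccl7 had log2 differences of 0.64 and 0.14. Of 15 kept NF-kappaB subunits and targets 11 were below 0, with a median log2 difference of -0.27. Only 1 was called, the regulator Nfkbiz (16.5 and 3.37 FPKM, -2.003), beside 6.51% lower over all kept genes. The next largest difference was that of Birc3 (-0.96). The metal-binding metallothioneins, which are abundant here, were lower: Mt1 at 1949.6 and 529 FPKM (-1.88), and Mt2 at 2311 and 547 FPKM (-2.08).

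**Figure D2:**
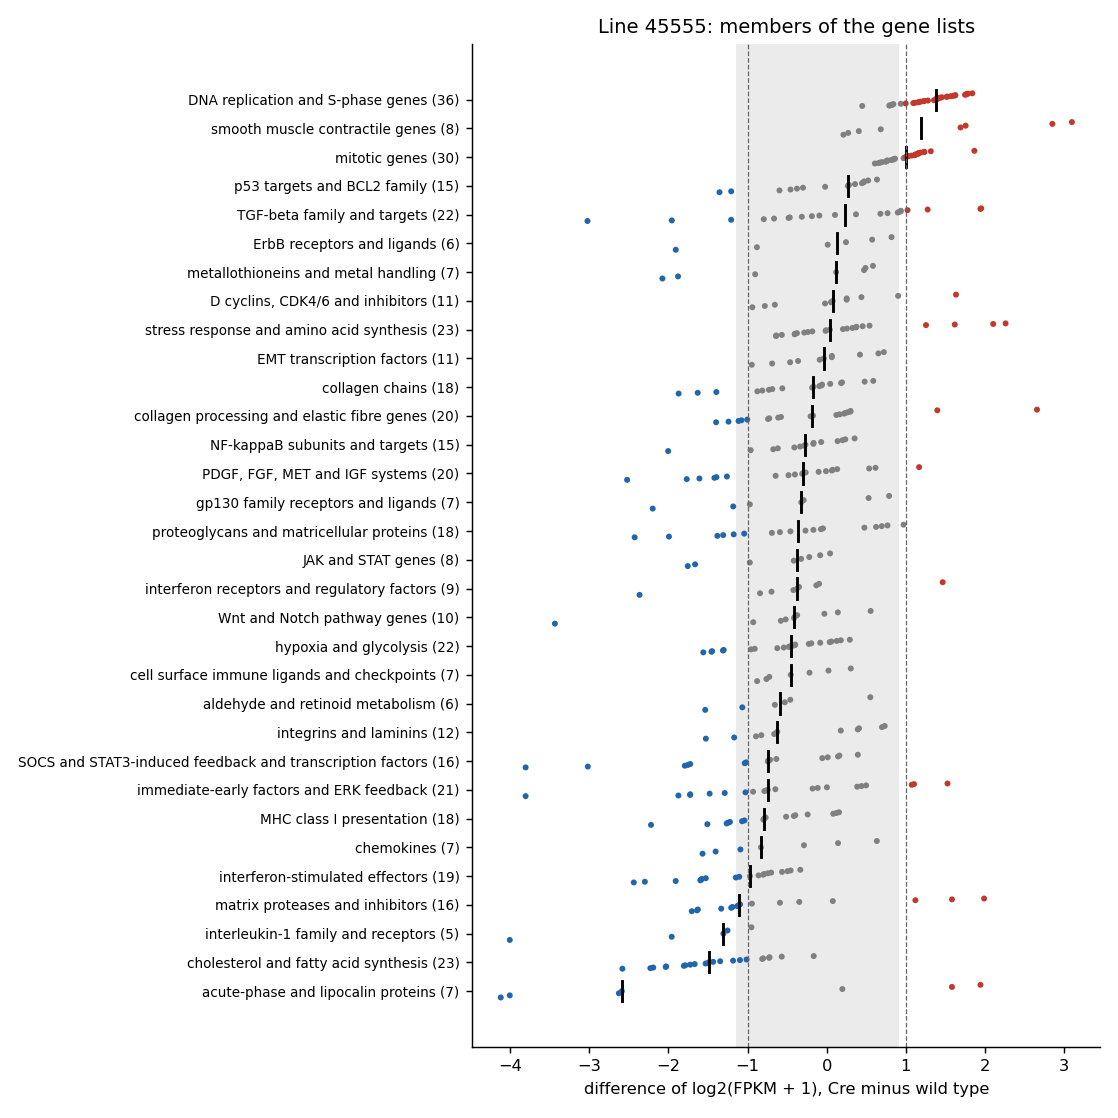
Each point is a kept member of a gene list, and the x axis is its log2 difference in line 45555, Cre minus wild type, with the number of kept members beside each list name. Black bars are list medians, dashed lines mark a difference of 1 in size, blue and red points lie past them, and the grey band spans the 5th to 95th percentile of all kept genes (-1.14 to 0.90). Lists with 5 or more kept members are shown, ordered from the S-phase list at the top (median 1.38) to the acute-phase list at the bottom (median -2.59).

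Immediate-early genes respond within minutes to growth factors and cytokines, and their list here also holds ERK feedback genes. Of 21 kept members of this mixed list, 7 were lower and 3 higher. On the lower side of 0 were 14, and the median log2 difference was -0.74. Fos, a subunit of the AP-1 transcription factor, stood at 36.2 FPKM in wild type and 1.66 FPKM in Cre (-3.81). The zinc finger factors Egr1 (347 and 94.0 FPKM, -1.87) and Egr2 (53.8 and 15.6 FPKM, -1.73) and the AP-1 subunit Junb (109 and 32.4 FPKM, -1.72) were lower as well. Nr4a1, an orphan nuclear receptor of the same early class, stood at 106 and 7.90 FPKM (-3.59). The AP-1 subunit Fosl1 was higher, at 5.82 and 18.7 FPKM (1.53), as were the phosphatase Dusp4 (18.9 and 41.8 FPKM, 1.11) and the Ets factor Etv4 (6.59 and 15.005 FPKM, 1.08). The ErbB feedback inhibitor Errfi1 stood at 274 and 72.4 FPKM (-1.91), and Egfr at 17.2 and 8.89 FPKM (-0.88).

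Genes of DNA replication were higher in the Cre library almost without exception. All 36 members of the S-phase list were kept, all 36 had a positive log2 difference, 29 were called higher and 0 lower, and the median was 1.38. The list summed to 749 FPKM in wild type and 1918 FPKM in Cre. Rrm2, the small subunit of ribonucleotide reductase, stood at 33.2 and 122 FPKM (1.84), and Uhrf1, which guides maintenance methylation of new DNA, at 23.1 and 82.1 FPKM (1.79). The helicase subunit Mcm5 stood at 22.7 and 80.1 FPKM (1.77), and the helicase loader Cdc6 at 2.72 and 11.7 FPKM (1.77). The smallest difference was that of the clamp loader subunit Rfc4, at 23.7 and 32.7 FPKM (0.45).

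Mitotic genes pointed the same way with smaller differences. All 30 were kept and above 0, 15 were called higher (18 with the Cre library rescaled) and 0 lower, and the median log2 difference was 1.00. Mybl2, a factor that activates mitotic genes, had the largest value, at 4.48 FPKM in wild type and 19.0 FPKM in Cre (1.87). Cyclin A2 (Ccna2) stood at 42.5 and 107 FPKM (1.32), the checkpoint target Cdc20 at 50.1 and 119 FPKM (1.24) and the guanine nucleotide exchange factor Ect2 at 17.1 and 41.7 FPKM (1.24). Mki67, a common marker of cycling cells, missed the threshold at 33.6 and 60.1 FPKM (0.82). Ccnd1, the cyclin of G1 entry, stood at 105 and 329 FPKM (1.64) and was the 1 member called of 11 kept D cyclin, CDK4/6 and inhibitor genes. The kinase Cdk4 lay at 0.08, and the inhibitors Cdkn1a and Cdkn1b at 0.06 and -0.94. In bulk RNA a larger share of cells in S phase and more RNA per cell cannot be told apart.

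The promoters of these genes were searched with a motif picked after the values were seen. TTTNNCGC, a form of the E2F site read on both strands, was in 12 of 36 promoters (33.3%) of called S-phase and mitotic genes, against 10.96% of kept genes. The 250 bases before the start of Mcm6 (chr1:128359706-128359955, minus strand), a helicase subunit at 34.2 FPKM in wild type and 92.8 FPKM in Cre (1.41), hold 3 matches, of which those 110 and 106 bases before the start overlap and the other lies 47 bases before it.
Mcm6: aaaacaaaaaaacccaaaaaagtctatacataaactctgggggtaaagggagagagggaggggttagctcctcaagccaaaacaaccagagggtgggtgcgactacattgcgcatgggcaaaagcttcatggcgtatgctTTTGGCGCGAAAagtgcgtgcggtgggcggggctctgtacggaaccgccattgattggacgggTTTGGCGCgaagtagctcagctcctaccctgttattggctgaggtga

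The enzymes of sterol and fatty acid synthesis were lower in the Cre library. Of 23 kept members of 24 listed, all 23 were below 0, 17 were called lower and 0 higher, and the median log2 difference was -1.49. With the Cre library rescaled 15 were called lower. The list summed to 2898 FPKM in wild type and 977 FPKM in Cre. Mvd, which makes isopentenyl diphosphate, stood at 62.1 and 9.53 FPKM (-2.58), and Fdps, which makes farnesyl diphosphate, at 504 and 107 FPKM (-2.23). Insig1, a sterol-sensing protein that is itself a target of the pathway's transcription factor, stood at 108 and 22.9 FPKM (-2.19), and the cyclase Lss at 33.2 and 7.34 FPKM (-2.03). The fatty acid arm was less uniform. The desaturases Scd1 (249.7 and 60.4 FPKM, -2.03) and Scd2 (556 and 205 FPKM, -1.43) were called, while acetyl-CoA carboxylase (Acaca) lay at -0.57 and fatty acid synthase (Fasn) at -0.16. The transcription factors Srebf2 (-0.81) and Srebf1 (-0.73) did not pass the threshold. A sterol element motif picked after the values were seen, TCACNCCAC on both strands, was in 1 of 9 promoters of called members, against 1.42% of kept genes. It is shown for Hmgcs1, HMG-CoA synthase (149 and 41.9 FPKM, -1.81), at chr13:119690101-119690350 on the plus strand, 137 bases before the start.
Hmgcs1: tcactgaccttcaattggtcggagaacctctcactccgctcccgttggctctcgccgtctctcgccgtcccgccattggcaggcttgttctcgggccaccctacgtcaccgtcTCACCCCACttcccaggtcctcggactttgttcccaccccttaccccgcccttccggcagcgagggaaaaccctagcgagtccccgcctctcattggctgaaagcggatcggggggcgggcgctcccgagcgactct

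Contractile genes of smooth muscle were higher. Of 15 listed, 8 were kept, all 8 were above 0, and 4 were called higher, with a median log2 difference of 1.19. Acta2, smooth muscle actin, stood at 178 FPKM in wild type and 1296 FPKM in Cre (2.86). Tagln, an actin-binding protein, stood at 34.3 and 302 FPKM (3.10), tropomyosin Tpm2 at 75.6 and 258 FPKM (1.76) and the light chain Myl9 at 52.6 and 173 FPKM (1.69). The other 4 (Tpm1, Cnn2, Cald1, Smtn) lay between 0.21 and 0.69. Acta2 is also on the basal and myoepithelial marker list. Of the other 11 markers of that list 1 was kept, Procr, at 12.3 and 12.6 FPKM.

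**Figure D3:**
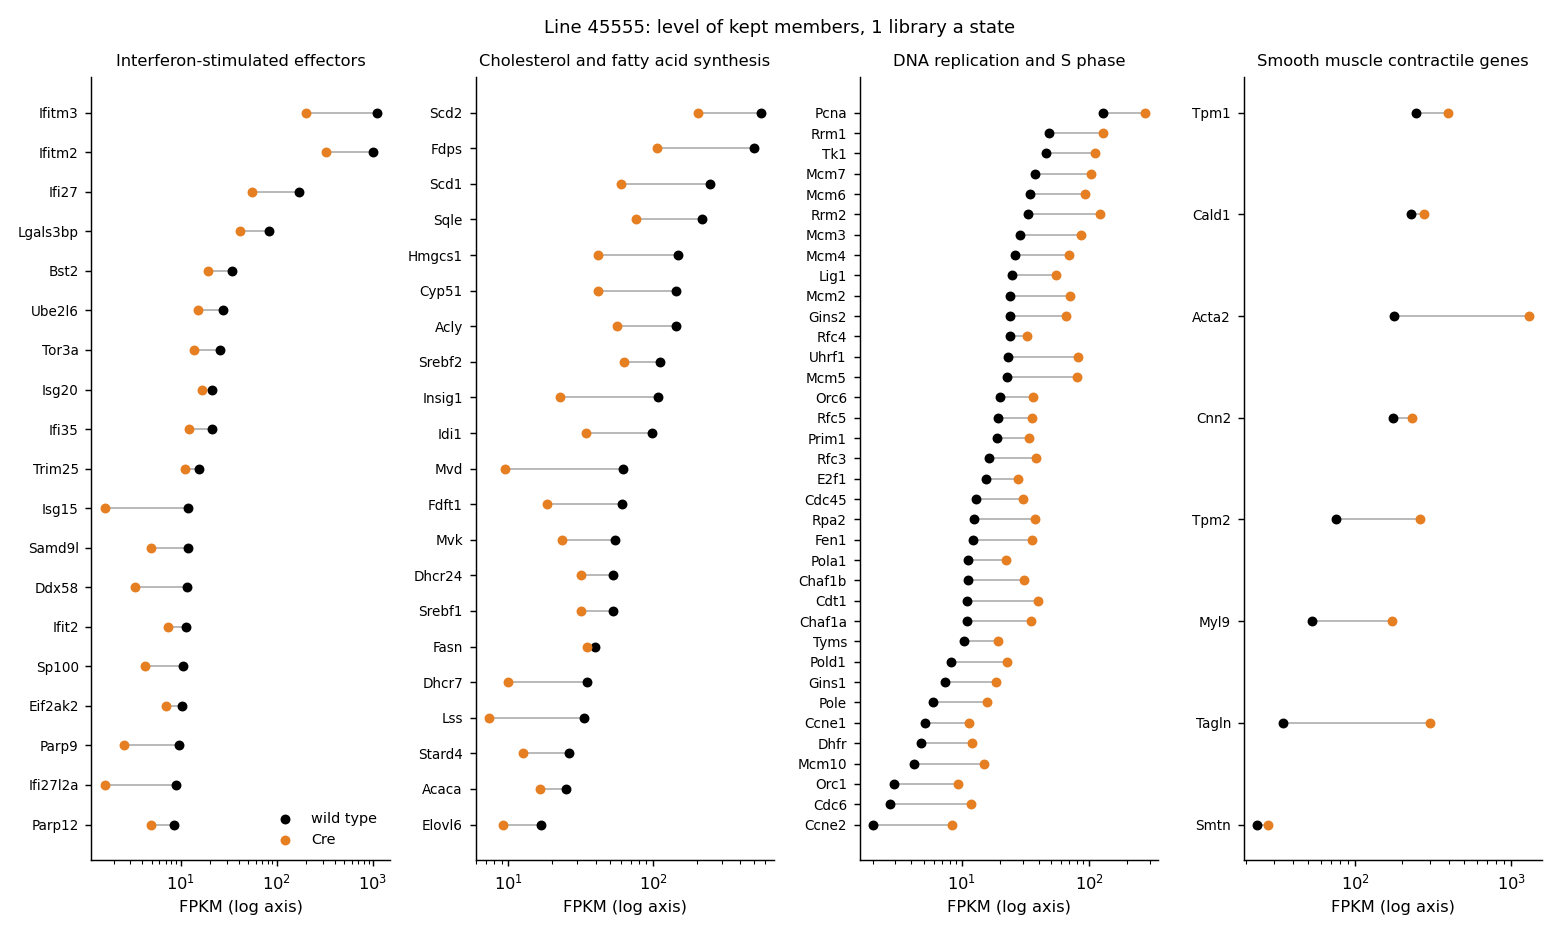
Rows are kept members of 4 gene lists, and the x axes show its FPKM on a log scale in the wild type library (black) and the Cre library (orange) of line 45555, 1 library each. The interferon-stimulated effectors and the sterol and fatty acid genes drawn lie lower in Cre, and the S-phase and contractile genes lie higher.

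The matrix was altered in parts. Of 18 kept collagen chains 3 were lower and 0 higher, with a median log2 difference of -0.17. The fibrillar chain Col3a1 stood at 883 FPKM in wild type and 241 FPKM in Cre (-1.87), and the microfibril chains Col6a1 (866 and 279 FPKM, -1.63) and Col6a2 (633 and 240.2 FPKM, -1.39) were lower too, while Col6a3, their partner in the same trimer, was at 164 and 229.6 FPKM (0.48). The most abundant chains, Col1a1 and Col1a2, lay at -0.17 and -0.18. Spp1 (osteopontin), a secreted matricellular protein, stood at 5382 and 1351 FPKM (-1.99), the proteoglycan Prelp at 114 and 20.5 FPKM (-2.43) and fibronectin (Fn1) at 982 and 396 FPKM (-1.31). Of 18 kept proteoglycan and matricellular genes 6 were lower and 0 higher.

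Enzymes that cut or shape the matrix were mostly lower, with 9 of 16 kept members lower, 3 higher and a median log2 difference of -1.10. The plasminogen activator Plat stood at 32.5 FPKM in wild type and 9.27 FPKM in Cre (-1.70), and the metalloproteinases Mmp11 (66.8 and 20.8 FPKM) and Mmp2 (221 and 96.1 FPKM) had log2 differences of -1.64 and -1.19. The urokinase receptor Plaur was higher, at 6.59 and 29.2 FPKM (1.99), with Timp1 and Adam12 (25.5 and 56.7 FPKM, 1.12). Of 20 kept genes of collagen processing and elastic fibres 5 were lower, led by the microfibril protein Mfap5 (97.1 and 36.3 FPKM, -1.40), and 2 higher (3 and 2 with the Cre library rescaled). Pcolce2, an enhancer of procollagen processing, stood at 0.473 and 8.31 FPKM (2.66), and the crosslinking enzyme Loxl3 at 34.2 and 91.9 FPKM (1.40). No transcription factor of epithelial-mesenchymal transition was called, though single members differed in both directions. Of 11 kept, 0 were higher and 0 lower, with a median of -0.04 (0.07 with the Cre library rescaled), Twist1 at 0.07 and Zeb1 at -0.46. They ran from -0.95 (Foxc1, 10.3 and 4.88 FPKM) to 0.72 (Foxc2, 3.97 and 7.21 FPKM), with 6 below 0 and 5 above.

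Growth factor systems held called genes in both directions. Of 20 kept genes of the PDGF, FGF, MET and IGF systems 6 were lower and 1 higher. Over all kept genes 6.51% were lower and 3.48% higher. Hgf, the ligand of MET, stood at 7.24 FPKM in wild type and 0.434 FPKM in Cre (-2.52), and the receptor Pdgfra at 143 and 41.3 FPKM (-1.77). Igfbp4, which binds insulin-like growth factors, stood at 291 and 108 FPKM (-1.42). The ligand Pdgfa was the 1 called higher, at 15.3 and 35.7 FPKM (1.17). TGF-beta genes went both ways, 4 higher and 3 lower of 22 kept (7 and 3 with the Cre library rescaled). The latent-complex protein Ltbp2 (12.1 and 49.9 FPKM, 1.96) and the activin subunit Inhba (8.50 and 22.04 FPKM, 1.28) were higher, and the target Tgfbi (10.1 and 0.365 FPKM, -3.02) and the receptors Tgfbr3 (64.4 and 15.8 FPKM, -1.96) and Tgfbr2 (68.9 and 29.3 FPKM, -1.21) lower.

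Genes of the hypoxia response were lower in 5 of 22 kept cases, with 0 higher and a median log2 difference of -0.45. Hif1a, the oxygen-regulated factor, stood at 119.9 FPKM in wild type and 47.7 FPKM in Cre (-1.31), the stress protein Ndrg1 at 55.0 and 18.0 FPKM (-1.56), adrenomedullin (Adm) at 186 and 67.0 FPKM (-1.46) and the kinase Pdk1 at 22.6 and 7.64 FPKM (-1.45). Among the other members of the list the glycolytic enzymes Tpi1 and Hk2 lay at -0.54 and 0.29. Ndufa4l2, a mitochondrial protein known from hypoxic cells, had the lowest log2 difference after AF357426, at 212 and 5.27 FPKM (-5.09), and stood at 0.264 and 0.236 FPKM in 47298 and at a listed 0 in 45566B.

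Smaller counts were found in the remaining lists, beside 3.48% higher and 6.51% lower over all kept genes. Of 23 kept stress response and amino acid synthesis genes 4 were higher and 0 lower, and they were the chaperone Hsph1 (40.4 FPKM in wild type and 98.0 FPKM in Cre, log2 difference 1.26) and the redox enzymes Nqo1, Gclm and Txnrd1. The unfolded protein response chaperone Hspa5 stood at 920.03 and 947 FPKM (0.04), and the amino acid response factor Atf4 at 518 and 391 FPKM (-0.40), so the rest of that list differed little. Of 15 kept p53 targets and BCL2 family genes 2 were lower, Sesn1 (23.9 and 8.72 FPKM, -1.35) and Trp53inp1 (14.8 and 5.84 FPKM, -1.21), while the p53 target Cdkn1a lay at 0.06 and the ligase Mdm2 at 0.28. Of 12 kept integrin and laminin chains 2 were lower, the laminin chain Lama4 (37.0 and 12.2 FPKM, -1.53) and the collagen-binding integrin chain Itga11 (52.3 and 22.7 FPKM, -1.17). Of 6 kept aldehyde and retinoid genes 2 were lower, among them the reductase Dhrs3 (33.7 and 15.6 FPKM, -1.07, but -0.96 with the Cre library rescaled). None of the 7 kept surface immune ligands and checkpoints was called in either direction, and the death receptor Fas had the largest difference, at 8.38 and 4.10 FPKM (-0.88). Of 10 kept Wnt and Notch genes 1 was lower, the secreted inhibitor Sfrp1.

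The largest higher values belonged to 2 small families. The class I-like genes H2-M1 (0.252 FPKM in wild type and 54.6 FPKM in Cre, 5.47) and H2-M9 (1.78 and 121 FPKM, 5.45) lie close together on chromosome 17, from 36670008 to 36672219 and from 36639285 to 36642666 in GRCm38. Of the 12 H2-M symbols in the table, 8 were listed at 0 in both libraries and H2-M3 went the other way, at 14.3 and 6.46 FPKM (-1.04). The prolactin relatives Prl2c3 (8.89 and 339 FPKM, 5.10) and Prl2c2 (10.6 and 325 FPKM, 4.81), proliferins of the placenta, are near-identical copies on chromosome 13. How reads were split between copies is not known here, so the level of each single gene in both families is uncertain. Npnt (nephronectin), a matrix ligand of integrins, stood at 2.46 and 29.98 FPKM (3.16). Fgd3, Dlk2, Kcnf1 and Smpd3 had log2 differences between 2.08 and 2.91. Pet117 (2.79) was listed at 0.00017 FPKM in wild type, and such fractions of a fragment are estimates of the fragment-assignment model, so its value is uncertain.

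On the lower side AF357426, at 276 FPKM in wild type and listed at 0 in Cre, is a small nucleolar RNA that the symbol rule did not catch, and its level may rest on few fragments. Calb2, a calcium-binding protein, was at 9.31 FPKM in wild type and listed at 0 in Cre. The Wnt inhibitor Sfrp1 stood at 14.1 and 0.396 FPKM (-3.44), the membrane protein Gpm6b at 36.9 and 2.21 FPKM (-3.56), the surface protein Ly6c1 at 70.5 and 6.02 FPKM (-3.35), the peptidase Xpnpep2 at 18.3 and 1.01 FPKM (-3.26) and the enolase Eno2 at 23.2 and 1.80 FPKM (-3.11).

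These values were set beside the same pair of states in the other 2 lines. In 47298, 8.76% of the genes kept in that line were higher and 11.8% lower, and in 45566B 0.46% were higher and 1.95% lower. Of the 578 genes lower in 45555, 217 (37.5%) were also lower by 1 or more in 47298, against 10.9% of all 8885 kept genes, and 31 (5.36%) in 45566B, against 0.912%. Of the 309 higher genes 37 (11.97%) were also higher in 47298, against 5.26% of kept genes, and 4 (1.29%) in 45566B, against 0.326%. Each share describes single pairs of libraries, and no test between lines was possible. Across the 8885 genes the log2 differences of 45555 had a Pearson r of 0.25 with those of 47298 and 0.16 with those of 45566B, as a description over genes, which are not independent.

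At 1 or more in size in all 3 lines were 17 lower genes and 1 higher gene. The lower ones were Ifitm6, Ifitm3, Irf9, Isg15, Gbp2, AI607873, Tgfbr3, Ly6a, Ifi27l2a, Ifi203, Stat2, Ifi27, Clec2d, Ifi204, Ifi202b, Sp100 and Samd9l, and 8 of them are on the 3 interferon lists. Isg15 stood at 34.8 FPKM in wild type and 8.14 FPKM in Cre of 47298, and at 287 and 22.4 FPKM in 45566B. Its wild type level was thus lowest in 45555, at 11.96 FPKM. Ly6a, a surface protein also known as stem cell antigen 1, stood at 785 and 206 FPKM in 45555, 1175 and 26.8 FPKM in 47298, and 518 and 185 FPKM in 45566B. Ifitm3 was lower by a log2 difference of -2.44, -2.58 and -2.97 in 45555, 47298 and 45566B. The 1 higher gene was Pcolce2, with log2 differences of 2.66, 2.49 and 1.10. By the smallest difference over the 3 lines, Prss23 (1.16, 0.93 and 0.87), Depdc7 (0.95, 1.63 and 0.73) and Pdgfa (1.17, 1.51 and 0.71) came next.

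**Figure D4:**
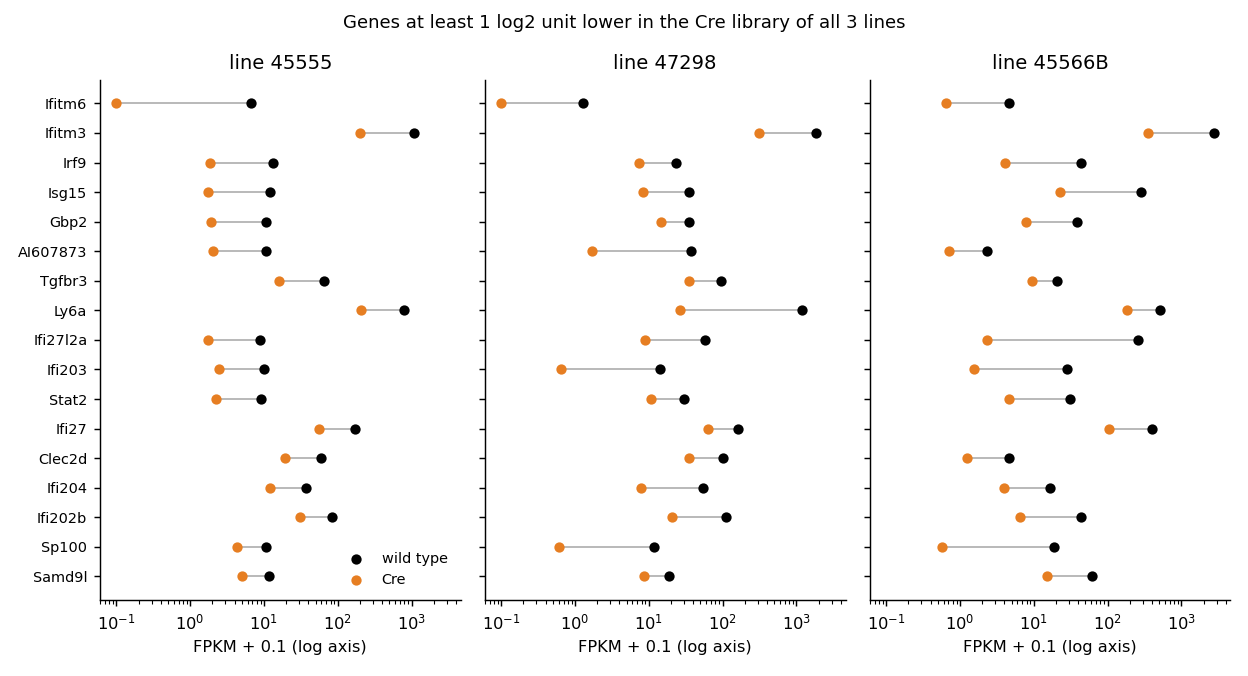
The 17 genes that were lower by a log2 difference of 1 or more in the Cre library of 45555, 47298 and 45566B, with FPKM + 0.1 on a log x axis for the wild type library (black) and the Cre library (orange) of each line, 1 library each. Rows are ordered by the log2 difference in 45555, from Ifitm6 (-2.91) at the top to Samd9l (-1.10) at the bottom, and in every panel the orange point lies left of the black one.

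Some other lists differed in direction or size between the lines. The sterol and fatty acid list, with a median log2 difference of -1.49 in 45555, had 0.77 in 47298 (8 of the 23 members higher, 0 lower) and -0.07 in 45566B (0 and 0). The contractile list had 1.19, -1.90 and 0.15 in the same order of lines, and the S-phase list 1.38, 0.67 and -0.10. The collagen chains lay at -0.17 in 45555 and -3.11 in 47298. The interferon-stimulated effectors were below 0 in all 3 lines, at -0.97, -1.01 and -2.35. They were not the only list to keep 1 direction. The immediate-early and ERK feedback list lay at -0.74, -0.52 and -0.13, and the JAK and STAT list at -0.37, -1.07 and -0.11. The mitotic list was above 0 in all 3 lines, at 1.00, 0.68 and 0.32. Of the 15 largest higher genes of 45555, 4 were also higher by 1 or more in 47298 and 7 were lower by 1 or more there. Of the 15 largest lower genes 8 were also lower and 0 were higher. In 47298 the fibroblast list summed to 10590 FPKM in wild type and 2094 FPKM in Cre, against 12219 and 12152 FPKM in 45555. The part of this difference in the comparison was not tested.

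**Figure D5:**
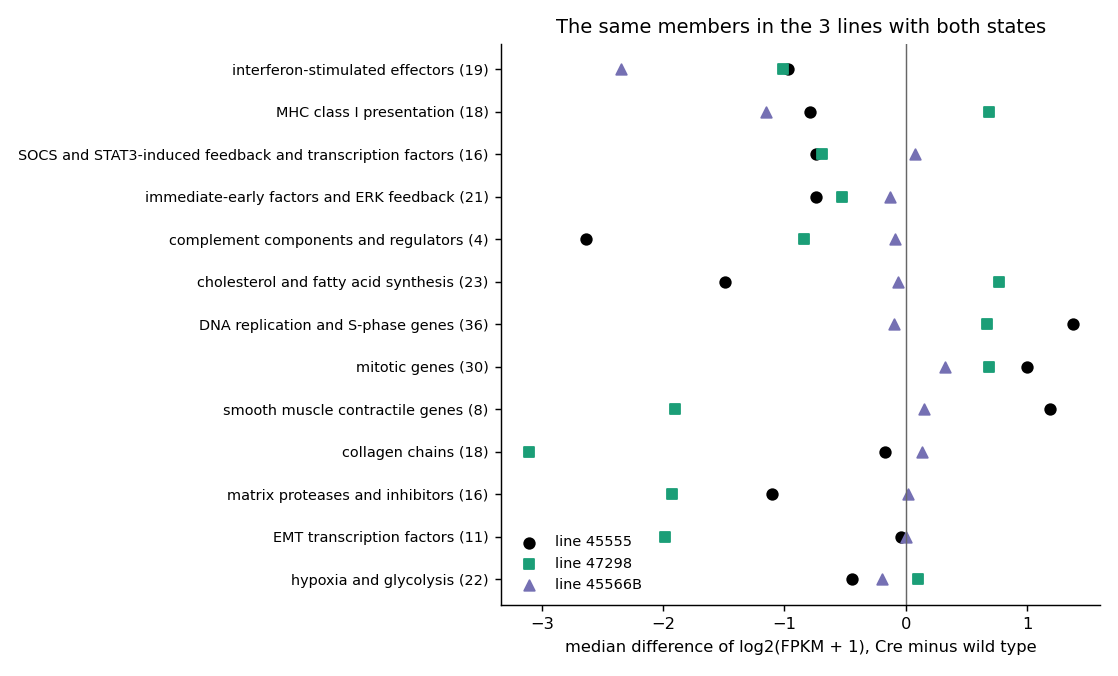
Median log2 difference, Cre minus wild type, of the members kept in 45555 (number in brackets) for 13 gene lists, in line 45555 (black circles), 47298 (green squares) and 45566B (violet triangles), 1 library a state. The interferon-stimulated effectors, the immediate-early list and the complement list lie left of 0 in all 3 lines, and the mitotic list lies right of 0. Of the 4 complement members, 3 passed the limit through the 45555 wild type library only. The sterol, contractile and antigen presentation lists lie on opposite sides of 0 in 45555 and 47298.

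By chromosome the median log2 difference was even. Chromosome medians in 45555 ran from -0.09 (chromosomes 14 and X) to 0.04 (chromosome 5), whereas in 47298 chromosomes 4, 10 and 12 had medians of -0.51, -0.33 and -0.61. The share of higher genes in 45555 was less even, from 1.01% of kept genes on chromosome 14 to 7.12% on chromosome 13, against 3.48% over all kept genes.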

How the data were processed

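RNA was sequenced from 9 mouse mammary tumour cell libraries, 1 per line and state. The authors deposited FPKM for each gene symbol. The submitters' processing notes name build mm10 and, without saying what each was used for, the tools Cuffnorm, Cufflinks 2.2, TopHat2 2.1 and cutadapt. RNA was primed with oligo-dT and libraries were made with a TruSeq kit, per the labels' protocols. No source at hand states strandedness or the scaling option, so reads of antisense or overlapping genes may be mixed.

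The table held 24346 rows. In 27 names a spreadsheet had made a date of the symbol, and 4 rows with a repeated name were left out, with 1283 short noncoding RNA symbols. Log2 differences of FPKM + 1 were computed in Python 3.11.15 with pandas 2.3.3, and the code was checked on simulated data. Depth was read from low values of genes with 1 transcript of over 1500 bases, of which 85.0% (wild type) and 85.6% (Cre) lay within 0.1 of a whole number of fragments. Positions are from GENCODE vM21 (8568 of the kept symbols matched) and promoters from RefSeq GRCm38.p6. Gene starts can differ between these sources.

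The members, the 41 gene lists and the rules were chosen with earlier results of these data known. Named were Jak1, the 15 largest differences each way, up to 4 members a list, fixed regulators and markers, the 10 most abundant genes, and 8 each way shared by the 3 lines or past both other lines. Further list members, the H2-M, prolactin, ribosome and antioxidant lists and the sterol and E2F motifs were picked after values were seen. Some genes the rule names are not reported here.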

Additional observations from a re-analysis of the deposited data

Results flagged for a closer look

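Among the 15 largest log2 differences of 45555 each way, 7 genes had a difference of 1 or more in the opposite direction in 47298. So did 26 of all 309 higher genes (8.41%), against 10.9% of all 8885 kept genes that were lower by 1 or more in 47298. Of all 578 lower genes 51 (8.82%) did, against 5.26% of kept genes that were higher by 1 or more there. Among these lower genes were Cp (-2.59 in 45555 and 2.86 in 47298), Spp1 (-1.99 and 2.79), Insig1 (-2.19 and 1.57) and Il18 (-1.96 and 1.02). With 1 library a state, none of these differences between the lines was tested. Each value is a log2 difference, Cre minus wild type, with 45555 first in each pair. The class I-like genes H2-M1 and H2-M9 were at 5.47 and 5.45 in 45555 and at -3.82 and -2.88 in 47298. The proliferins Prl2c3 and Prl2c2 were at 5.10 and 4.81 in 45555 and at -3.63 and -3.35 in 47298. The contractile genes Tagln and Acta2 were at 3.10 and 2.86 in 45555 and at -3.51 and -3.08 in 47298. Smpd3, a sphingomyelinase, was at 2.08 in 45555 and at -4.88 in 47298.

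Among lists of 5 or more kept members, 3 had medians of opposite sign in the 2 lines, both over 0.5 in size. The median of kept antigen presentation members was -0.79 in 45555 and 0.69 in 47298. The median of contractile members was 1.19 in 45555 and -1.90 in 47298. That of sterol and fatty acid members was -1.49 in 45555 and 0.77 in 47298.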

How the results depend on the processing

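No paired analysis was possible because each state of line 45555 has 1 library, and for the same reason no library could be left out. The 309 higher and 578 lower genes came to 506 higher genes (and 611 lower) when each library was rescaled to a common larger sum, which also raised the genes kept from 8885 to 9860. With the Cre library alone rescaled to the wild type sum, a setting added after seeing the data, they were 450 and 465 of 8949. The median of kept genes then moved by 0.11, list medians moved by about as much, and that of EMT transcription factors turned from -0.04 to 0.07. A threshold of 1.5-fold gave 1110 higher and 1368 lower genes, and a log2 difference of 2 gave 15 and 91. The pseudocount, the other filters and centring kept both counts within 1.5 times, from 273 to 387 higher and 427 to 776 lower. Of 756 gene differences recomputed, 0 reversed, 11 gained and 6 lost the call (Socs3 and Dhrs3 under both rescalings, Cxcl1 and Plin4 under the second), and of 656 list counts 610 stayed within 1.5 times. The 0 reversals carry little weight. A change of pseudocount cannot turn a sign, and rescaling the Cre library moved the median of kept genes by only 0.11. Interferon-stimulated effectors went from 9 lower to 19 without a filter on low values, to 18 with a filter on the other 7 libraries and to 14 under the first rescaling, and stayed at 9 under the second.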

Other observations

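Genes of ribosome assembly, listed after values were seen, were higher in the Cre library of 45555. All 25 were kept and above 0, 12 were called higher and 0 lower, and the median log2 difference was 1.00. With the Cre library rescaled 17 were called higher and the median was 1.105. Rrp12, an assembly factor, stood at 4.19 FPKM in wild type and 16.7 FPKM in Cre (1.77). Nop56, a core protein of the nucleolar particle that methylates ribosomal RNA, stood at 59.8 and 156 FPKM (1.37), and nucleolin (Ncl) at 102 and 217 FPKM (1.08). The ribosomal protein genes themselves did not share this direction. Of 76 measured, 74 were below 0, 0 were called, and the median was -0.39. They summed to 146690 FPKM in wild type and 110810 FPKM in Cre, and their median was -1.31 in 47298 and 0.10 in 45566B. With the Cre library rescaled to the wild type sum the median of all kept genes moved up by 0.11, and 72 ribosomal protein genes were still below 0, with a median of -0.29.

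Antioxidant genes, also listed after values were seen, were higher in 45555: 9 of 29 kept members were called, 0 were lower, and the median log2 difference was 0.68. With the Cre library rescaled 11 were called. Txnrd1, thioredoxin reductase, stood at 51.1 FPKM in wild type and 249 FPKM in Cre (2.26). Gclm, a subunit of the first enzyme of glutathione synthesis, stood at 28.6 and 127 FPKM (2.11), sulfiredoxin (Srxn1) at 31.6 and 122 FPKM (1.92), and the quinone reductase Nqo1 at 66.0 and 205 FPKM (1.62). Nfe2l2, the factor known to activate these genes, and its inhibitor Keap1 had log2 differences of 0.01 and -0.00 (0.12 and 0.10 with the Cre library rescaled). In the other lines the called members varied. Txnrd1 lay at -0.14 in 47298 and 0.20 in 45566B, Gclm at -0.42 and 0.32, Nqo1 at -0.38 and 1.22, and Osgin1 at 1.16 and -0.02.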
